A study of Mus musculus with 8 samples.

Results

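The enzymes of the methionine cycle were examined in the livers of 8 ethanol-fed mice. The group holds the 10 genes that make and use S-adenosylmethionine (SAM) and homocysteine: Mat1a, Mat2a, Mat2b, Gnmt, Ahcy, Bhmt, Bhmt2, Mtr, Mtrr and Cbs. They were chosen by symbol in the GENCODE M21 annotation from 55450 genes in the table, with earlier results of these data known. All 10 were among the 16672 genes that passed the filter on low values. Of the mice, 4 had received AAV-H19 (animals 25 to 28), an adeno-associated virus named for the imprinted long non-coding RNA H19, and 4 with AAV-Null (animals 21 to 24), the comparison virus. Both groups were given an ethanol diet, so the effect of ethanol itself cannot be read from these libraries. The labels give liver as the tissue and say nothing of strain, age, viral promoter, dose or time, and nothing of whether animals shared a litter or a day, so a p-value here measures the spread between these samples.

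In the methionine cycle, a methionine adenosyltransferase joins methionine and ATP into SAM, the methyl donor of most methylation reactions. Methyltransferases turn SAM into S-adenosylhomocysteine, which is split into adenosine and homocysteine. Homocysteine is either methylated back to methionine, with betaine or methyl-folate as donor, or condensed with serine on the way to cysteine. Liver is the main site of this cycle, and ethanol feeding of rodents is known to disturb it, above all at methionine synthase.

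H19 itself was present at 104 to 155 CPM (counts scaled to library size with edgeR's TMM factors) in the AAV-H19 livers and at 0.142 to 1.41 CPM in the AAV-Null livers, so each library matched its label. The table's totals were 63.75 M to 78.75 M units in AAV-H19 libraries and 78.32 M to 82.99 M units in AAV-Null libraries. All 10 hepatocyte markers were detected, and their summed level was 124558 to 134426 CPM in AAV-H19 livers and 86378 to 122817 CPM in AAV-Null livers. Over all genes tested, 11.7% passed the test, with 5.6% of all genes higher and 6.07% lower in AAV-H19, by edgeR's quasi-likelihood test at a Benjamini-Hochberg adjusted p under 0.05. With upper-quartile scaling the median log2 change over all genes was -0.13, against -0.02 with TMM, and 29.6% of the calls were higher, against 48.0% with TMM. Protein-coding genes with long transcripts stood relatively higher in AAV-H19 libraries: Spearman's rho across genes between a library's deviation from the mean log2 CPM and principal transcript length averaged 0.384 ± 0.107 over the AAV-H19 libraries and -0.277 ± 0.150 over the AAV-Null libraries (SD of 4; exact permutation test, two-sided, p = 0.0286).

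Mat1a and Cbs were higher in AAV-H19 livers, and none of the other 8 enzymes passed the test in either direction. That is 2 of 10 beside 11.7% of all genes, a count too small to be read as different from the background. At an unadjusted p under 0.05 the count was also 2 higher and 0 lower, where 29.8% of all genes passed in either direction. The fitted log2 changes were positive in 5 enzymes and negative in 5, with a median of 0.03, against -0.02 over all genes tested. In Mat1a and Cbs the groups did not overlap, which held for 12.1% of all genes in this direction, and in the other 8 they did.

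**Figure D1:**
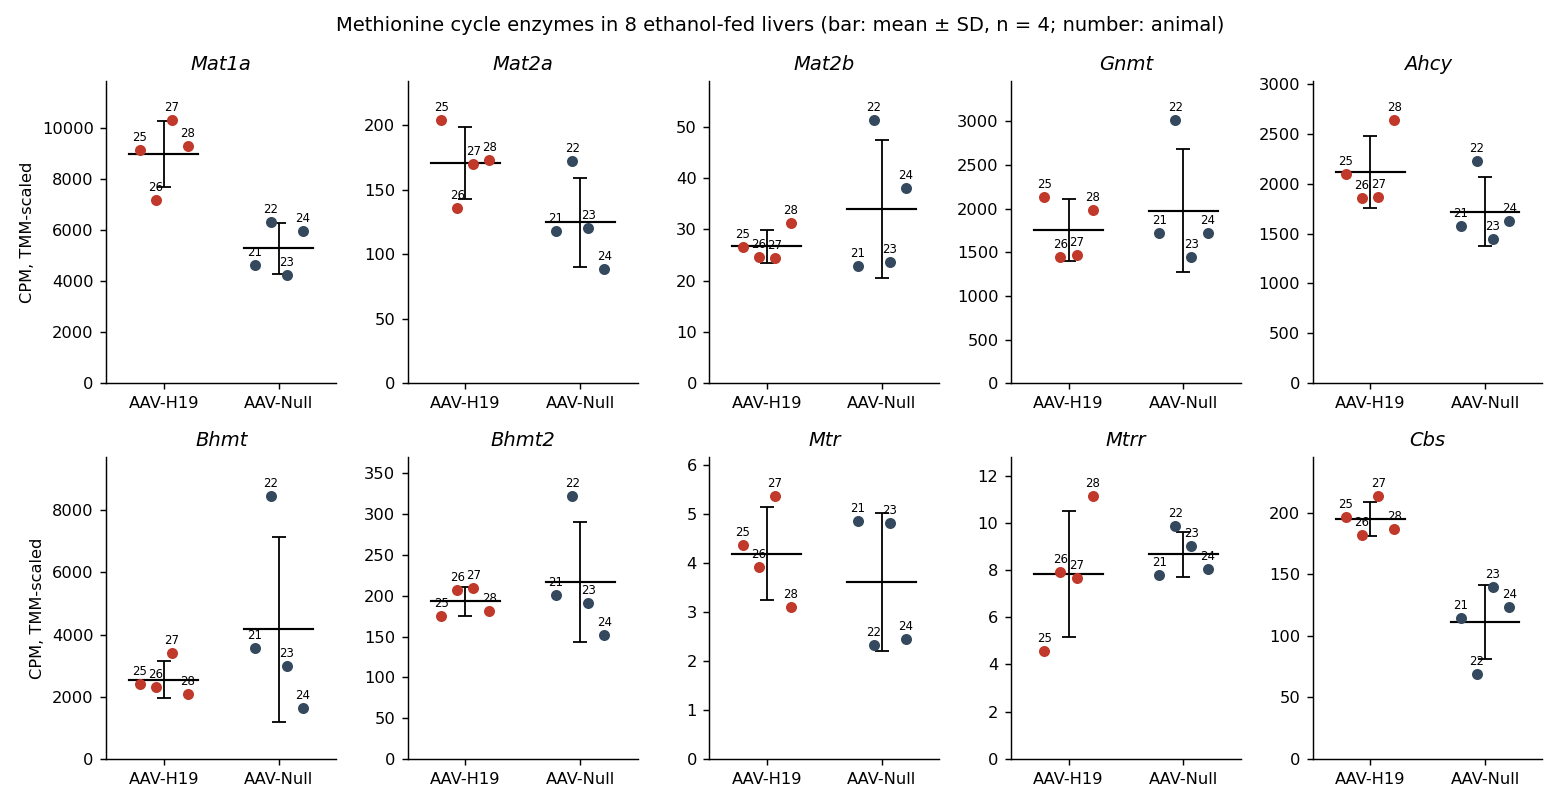
Level of each enzyme in each library, in TMM-scaled CPM on a linear axis from 0, with AAV-H19 livers left and AAV-Null livers right in each panel. Points are livers, numbered by animal, and lines with bars are the mean ± SD of 4. The groups are apart in Mat1a and Cbs only, and AAV-Null 22 is the highest AAV-Null liver in 8 panels and the lowest in those of Mtr and Cbs.

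Per kilobase of transcript, the scale on which levels of different genes can be compared, the enzymes covered a wide range and fell into an abundant and a scarce set. Mat1a stood at 2797 ± 404 CPM per kb in AAV-H19 livers and 1645 ± 314 in AAV-Null livers (SD, n = 4 each). Gnmt stood at 1697 ± 341 and 1909 ± 678 CPM per kb in AAV-H19 and AAV-Null livers, Bhmt at 1026 ± 235 and 1675 ± 1193, and Ahcy at 832 ± 143 and 676 ± 136. These 4 form the abundant set in both groups.

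Bhmt2, Cbs and Mat2a lay about an order of magnitude lower. Bhmt2 was at 78.3 ± 7.17 CPM per kb in AAV-H19 and 87.8 ± 29.8 in AAV-Null livers, Cbs at 77.0 ± 5.43 and 44.1 ± 11.9, and Mat2a at 60.9 ± 9.87 and 44.4 ± 12.4. Mat2b followed at 13.7 ± 1.66 and 17.4 ± 6.91 CPM per kb, Mtrr at 2.02 ± 0.693 and 2.25 ± 0.247, and Mtr was lowest at 0.505 ± 0.113 and 0.435 ± 0.170. Mat1a was first, ahead of Gnmt with no overlap, in AAV-H19 livers. In AAV-Null livers the order began with Gnmt, Bhmt and Mat1a, and the ranges of these neighbours overlapped. The length trend was measured from each gene's mean over the 8 libraries, so only its difference between the groups can be read. Long transcripts stood relatively higher in AAV-H19 libraries, and the transcripts of Gnmt and Mat1a are 1035 and 3208 nt long. What the length trend gave to the change of order between the groups was not tested. Bhmt overlapped Ahcy in AAV-H19 livers, where Bhmt2, Cbs and Mat2a also overlapped in turn, and Mat2a overlapped Cbs in AAV-Null livers; all other neighbours were apart.

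**Figure D2:**
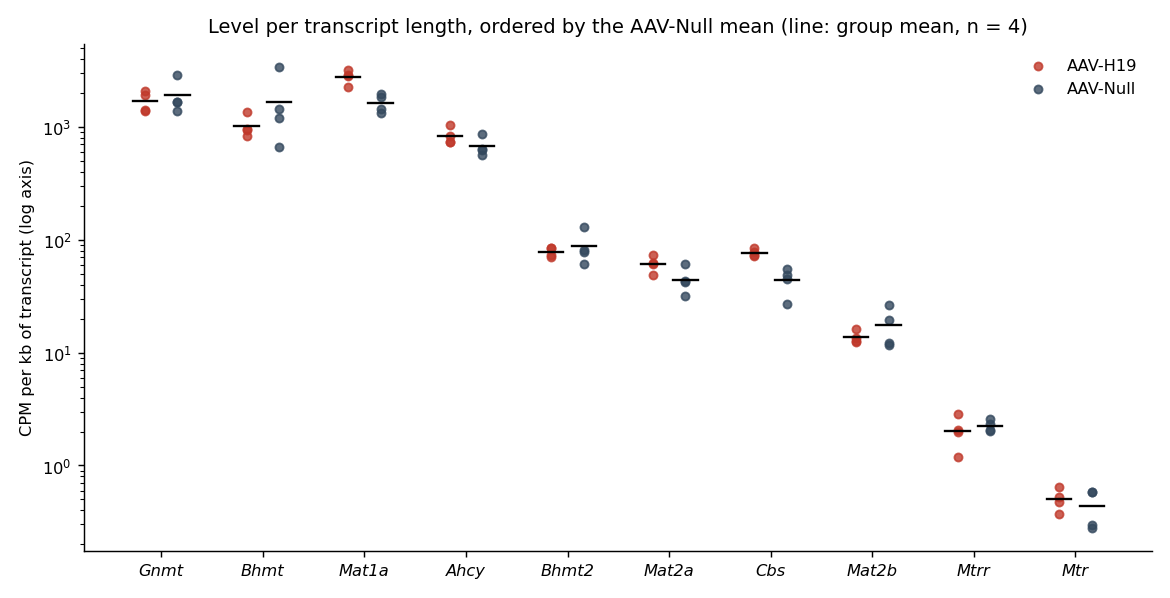
Level of each enzyme in CPM per kilobase of its principal coding transcript, on a log axis, with AAV-H19 livers left of AAV-Null livers at each gene. Points are livers and lines are means of 4. Genes are ordered by the AAV-Null mean, between 1909 for Gnmt and 0.435 for Mtr.

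The first step, SAM synthesis, is carried by Mat1a, the catalytic subunit of the adult liver enzyme, and by Mat2a, the catalytic subunit found in most other tissues and in dividing or injured liver. Mat1a (ENSMUSG00000037798) lies on the plus strand of chromosome 14 at 41105035 to 41124412, and Mat2a (ENSMUSG00000053907) on the minus strand of chromosome 6, spanning 72432799 to 72439558, in GRCm38. Because one is abundant and the other is not, reads of Mat1a counted as Mat2a could alter the lower gene. Their coding sequences, as annotated in GENCODE M21, were 73.0% identical, and the longest run they shared without a mismatch was 15 bases. It is given here in capitals with 30 bases on either side, in the coding direction from base 316 of the Mat1a and base 313 of the Mat2a coding sequence, counted from the start codon.
Mat1a: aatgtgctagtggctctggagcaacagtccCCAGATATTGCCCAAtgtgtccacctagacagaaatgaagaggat
Mat2a: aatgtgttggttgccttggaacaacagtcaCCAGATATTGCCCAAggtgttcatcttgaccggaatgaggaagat
No window of 50 bases of the Mat1a transcript occurred in a transcript of any other gene. Of the Mat2a windows, 7.95% occurred in the pseudogene Gm9523, which held 29 to 63 units in AAV-H19 and 18 to 32 units in AAV-Null livers. A further 5.95% were the reverse of the antisense transcript Particl (16 to 64 units in AAV-H19 and 39 to 112 in AAV-Null livers); with the strand setting of the counting not stated, the pair cannot be told apart by strand.

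Mat1a was at 9129, 7183, 10282 and 9298 CPM in AAV-H19 livers 25 to 28, against 4621, 6314, 4227 and 5940 CPM in AAV-Null livers 21 to 24. The lowest AAV-H19 liver, 26, was above the highest AAV-Null liver, 22. The transcript took up 0.736% to 1.02% of a library's total in AAV-H19 and 0.481% to 0.595% in AAV-Null, and by mean CPM it ranked 8 among the genes tested in AAV-H19 livers and 23 in AAV-Null livers. The fold change was 1.70, a log2 change of 0.77 ± 0.19 (SE, edgeR adjusted p = 0.036) with a 95% interval of 0.34 to 1.197. Without AAV-Null 22 the log2 change was 0.86 and the gene passed (edgeR adjusted p = 0.0209). Leaving out any of the other 7 libraries ended the call, with log2 changes of 0.66 to 0.86 and edgeR adjusted p of 0.0524 to 0.12.

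Mat2a was at 204, 136, 170 and 173 CPM in AAV-H19 livers 25 to 28 and at 118, 172, 120 and 88.6 CPM in AAV-Null livers 21 to 24. The groups overlapped through AAV-Null 22, which lay between AAV-H19 27 and 28 and above AAV-H19 26. The log2 change was 0.45 ± 0.22 (SE, edgeR adjusted p = 0.201), with a 95% interval of -0.04 to 0.95. Without AAV-Null 22, Mat2a passed at a log2 change of 0.65 (edgeR adjusted p = 0.0431); leaving out any other library gave no call. Mat2b (ENSMUSG00000042032, chromosome 11, minus strand, 40679314 to 40695203), which encodes the regulatory subunit that binds the Mat2a protein, was at 24.5 to 31.3 CPM in AAV-H19 livers and at 22.9 to 51.3 CPM in AAV-Null livers, and its log2 change was -0.35 ± 0.26 (SE, edgeR adjusted p = 0.409). It was -0.088 without AAV-Null 22.

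The ratio of Mat1a to Mat2a within a library, which library scaling does not touch, served as a second view of the catalytic subunits. Per kilobase, Mat1a exceeded Mat2a 39.2, 46.1, 52.9 and 46.9 times in AAV-H19 livers 25 to 28, and 34.3, 32.0, 30.8 and 58.6 times in AAV-Null livers 21 to 24. AAV-Null 24 had the highest ratio of all 8 and the other 3 AAV-Null livers the lowest. The log2 ratio of units was 5.72 ± 0.18 over AAV-H19 livers and 5.42 ± 0.43 over AAV-Null livers (SD of 4), a difference of 0.29 that did not pass (exact two-sided permutation p = 0.257; the smallest p this design allows is 0.0286). Without AAV-Null 24 the difference was 0.51 (exact two-sided permutation p = 0.0571).

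SAM is used and its product cleared by Gnmt and Ahcy. Gnmt, glycine N-methyltransferase, is an abundant liver enzyme that takes up surplus SAM, and Ahcy, adenosylhomocysteinase, splits S-adenosylhomocysteine. Gnmt (ENSMUSG00000002769) lies on chromosome 17 from 46725664 to 46729168 and Ahcy (ENSMUSG00000027597) on chromosome 2 from 155059310 to 155074497, both in minus orientation. Gnmt was at 2134, 1444, 1468 and 1980 CPM in AAV-H19 livers and at 1724, 3010, 1446 and 1724 CPM in AAV-Null livers, in order of animal number. Its log2 change was -0.17 ± 0.26 (SE, edgeR adjusted p = 0.696), and without AAV-Null 22, the highest of the 8, it was 0.10.

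Ahcy was at 2101, 1857, 1870 and 2634 CPM in AAV-H19 livers and at 1576, 2224, 1449 and 1627 CPM in AAV-Null livers, in order of animal number. All 4 AAV-H19 livers were above the 3 AAV-Null livers other than 22, which was above 3 of the AAV-H19 livers. The log2 change was 0.30 ± 0.20 (SE, edgeR adjusted p = 0.337), with a 95% interval of -0.14 to 0.74. Without AAV-H19 28 it was 0.18, and without AAV-Null 22 it was 0.45. Ahcy shared more sequence with other genes than any other member: 77.0% of its 50-base windows occurred in the sense transcript of another gene, 74.1% in Gm4737 and 33.9% in the pseudogene Gm9826.

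The counts were divided differently between Ahcy and these copies in the groups. Gm4737 held 10.9% to 22.2% of the pooled units of Ahcy, Gm4737 and Gm9826 in AAV-H19 livers and 24.3% to 27.02% in AAV-Null livers, and Gm9826 held 2.25% to 2.91% and 1.05% to 1.42%. Both the 10.9% of Gm4737 and the 2.91% of Gm9826 came from AAV-H19 28. Gm4737 was at 333 CPM in that liver, against 543, 496 and 548 CPM in AAV-H19 25 to 27. Gm9826 alone had a log2 change of 1.147 ± 0.19 (SE, edgeR adjusted p = 0.0118), and Gm4737 one of -0.32 ± 0.23 (adjusted p = 0.385). With the copies added to the gene (a step decided on after the data were seen), the log2 change of Ahcy was 0.18 ± 0.19 (edgeR adjusted p = 0.553), smaller than that of Ahcy alone by over 1.5 times. How the authors' counting assigned shared reads is not stated, so the levels of Ahcy and Bhmt are uncertain.

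**Figure D3:**
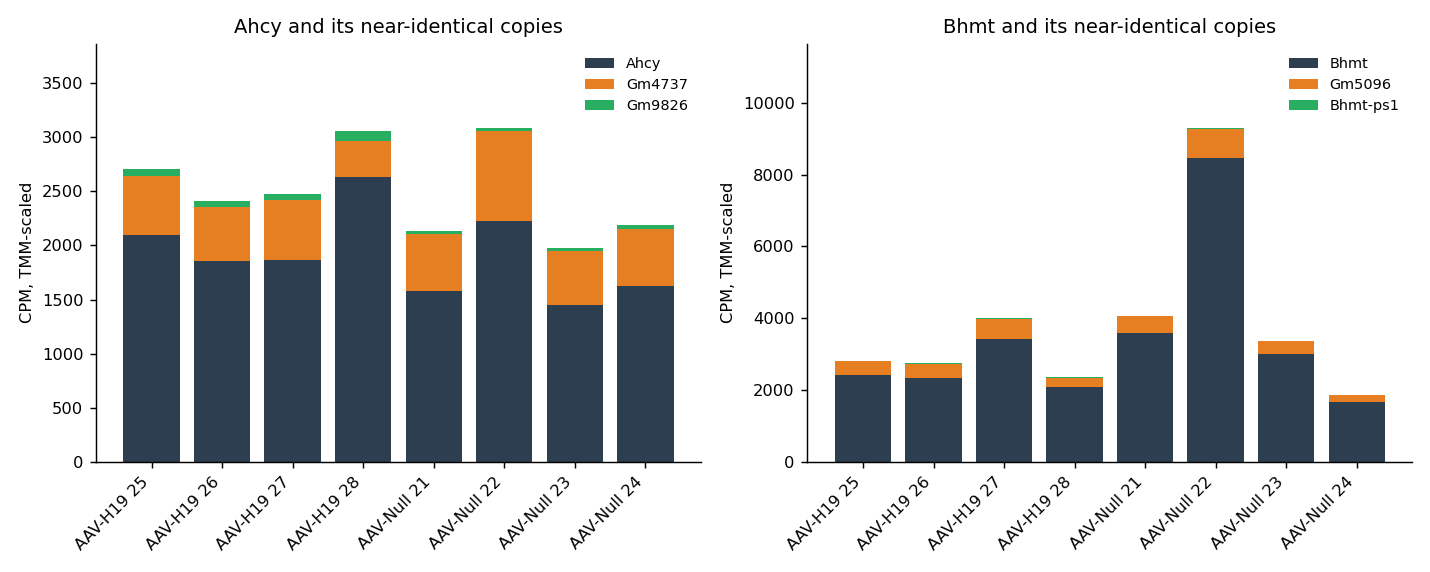
TMM-scaled CPM of Ahcy (left) and Bhmt (right), each stacked with the genes that share at least 5% of its 50-base transcript windows, in every library, AAV-H19 livers first. Gm4737 takes 10.9% to 22.2% of the Ahcy stack in AAV-H19 livers and more in AAV-Null livers, and AAV-Null 22 has the tallest Bhmt stack at 9316 CPM.

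Homocysteine is remethylated from betaine by Bhmt and from methyl-folate by methionine synthase, Mtr, which Mtrr keeps active by reducing its cobalamin. Bhmt2, the neighbour and paralog of Bhmt on chromosome 13, uses S-methylmethionine as donor. Bhmt was at 2410, 2329, 3407 and 2077 CPM in AAV-H19 livers and at 3581, 8457, 2992 and 1653 CPM in AAV-Null livers, in order of animal number. AAV-Null livers thus held both the highest and the lowest level, and the SD of log2 CPM over 4 livers was 0.31 for AAV-H19 and 0.97 for AAV-Null. The log2 change was -0.71 ± 0.43 (SE, edgeR adjusted p = 0.299) with a 95% interval of -1.66 to 0.25, and without AAV-Null 22 it was -0.10.

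The Bhmt and Bhmt2 coding sequences were 74.9% identical and shared a run of 59 bases without a mismatch. It is shown here, in capitals as the longest stretch where a read lying within it cannot tell the pair apart, with 30 bases on either side, from base 850 of the Bhmt and base 823 of the Bhmt2 coding sequence; chromosome 13 carries both genes in minus orientation, Bhmt (ENSMUSG00000074768) at 93616675 to 93637961 and Bhmt2 (ENSMUSG00000042118) at 93655720 to 93674302.
Bhmt: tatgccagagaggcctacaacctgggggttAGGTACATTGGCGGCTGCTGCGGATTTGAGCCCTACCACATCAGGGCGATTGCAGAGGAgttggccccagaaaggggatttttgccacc
Bhmt2: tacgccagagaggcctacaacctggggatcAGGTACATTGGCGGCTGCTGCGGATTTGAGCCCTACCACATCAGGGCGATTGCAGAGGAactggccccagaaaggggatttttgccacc
A larger part of Bhmt recurred in other genes, 56.9% of its windows in Gm5096 and 31.8% in the pseudogene Bhmt-ps1. Gm5096 held 10.5% to 14.4% of the pooled Bhmt units in AAV-H19 livers and 8.62% to 11.6% in AAV-Null livers, and Bhmt-ps1 held at most 1.35%. Summed with these copies, Bhmt had a log2 change of -0.64 ± 0.42 (SE, edgeR adjusted p = 0.341), and AAV-Null 22 was still highest at 9316 CPM. The antisense transcript Gm15622 inside Bhmt had at most 58 units.

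The groups overlapped in the other genes of remethylation too. Bhmt2 was at 175 to 210 CPM in AAV-H19 livers and at 152 to 322 CPM in AAV-Null livers, with a log2 change of -0.17 ± 0.23 (SE, edgeR adjusted p = 0.668) that was 0.091 without AAV-Null 22. Bhmt exceeded Bhmt2 per kilobase 13.7, 11.2, 16.1 and 11.4 times in AAV-H19 livers 25 to 28 and 17.6, 26.02, 15.5 and 10.8 times in AAV-Null livers 21 to 24. Mtr (ENSMUSG00000021311, 12182712 to 12258113) and Mtrr (ENSMUSG00000034617, 68560780 to 68582149) also lie on chromosome 13, minus strand. Mtr was at 3.10 to 5.36 CPM in AAV-H19 livers and 2.32 to 4.85 CPM in AAV-Null livers, and Mtrr at 4.58 to 11.1 CPM and 7.79 to 9.87 CPM. Their log2 changes were 0.21 ± 0.31 and -0.15 ± 0.26 (SE, edgeR adjusted p = 0.687 and 0.734). With single libraries left out, Mtr spanned 0.056 (without AAV-Null 22) to 0.39 (without AAV-Null 21), and Mtrr spanned -0.37 (without AAV-H19 28) to 0.039 (without AAV-H19 25).

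Mtr and Mtrr are the members where depth limits the values. Mtr had 164 to 429 units per library and Mtrr 342 to 803. If 4 units stand for a read or read pair, as the pile-up of low values at multiples of 4 would give, the counting error of a single Mtr value is 9.66% to 15.6% and that of an Mtrr value 7.06% to 10.8%, against 1.65% to 2.87% for Cbs. Each percentage is the standard error of a single value. A difference between livers carries the errors of both values, so differences of this size cannot be read at this depth either.

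Homocysteine leaves the cycle through Cbs, cystathionine beta-synthase, which condenses it with serine. Cbs (ENSMUSG00000024039, chromosome 17, minus strand, 31608894 to 31637238) was at 197, 182, 214 and 187 CPM in AAV-H19 livers 25 to 28, against 115, 69.0, 139 and 123 CPM in AAV-Null livers 21 to 24. The groups did not overlap, and AAV-Null 22, the highest AAV-Null liver in 8 other members, was the lowest here. The fold change was 1.75, a log2 change of 0.81 ± 0.22 (SE, edgeR adjusted p = 0.0417) with a 95% interval of 0.33 to 1.29. Without AAV-Null 22 it was 0.63 and without AAV-Null 23 it was 0.92, and both fits kept the call (edgeR adjusted p = 0.0217 and 0.0371). Leaving out any of the other 6 libraries ended it, with log2 changes of 0.76 to 0.86 and edgeR adjusted p of 0.0604 to 0.126, and with upper-quartile scaling the adjusted p was 0.0628.

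The length trend between the libraries was set against each enzyme by taking it out as an offset. With the length of the principal coding transcript, 3208 nt for Mat1a and 2533 nt for Cbs, their log2 changes were 0.62 and 0.80, and neither passed (edgeR adjusted p = 0.155 and 0.0644). The annotation also holds a protein-coding Cbs transcript of 6226 nt. With the longest transcript of each gene in the offset, the log2 change of Cbs was 0.38 (edgeR adjusted p = 0.243) and that of Mat1a 0.66 (edgeR adjusted p = 0.122). The value of Cbs under this offset therefore moved by over 1.5 times with the transcript assumed. Gnmt, with the shortest transcript of the members at 1035 nt, had a log2 change of 0.31 under the principal-transcript offset, and Mtr, with the longest at 8294 nt, one of -0.31; both differ in sign from the fit without it. Over all genes tested, that offset left 231 calls higher and 114 lower, against 934 and 1012 without it. The counts without an offset also fell when any AAV-H19 library was left out, to 86 to 373 higher and 27 to 325 lower. Without single AAV-Null libraries they were 679 to 1023 higher and 498 to 1050 lower. Leaving out a library also leaves fewer livers to compare, and the part of that in the drop was not tested.

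**Figure D4:**
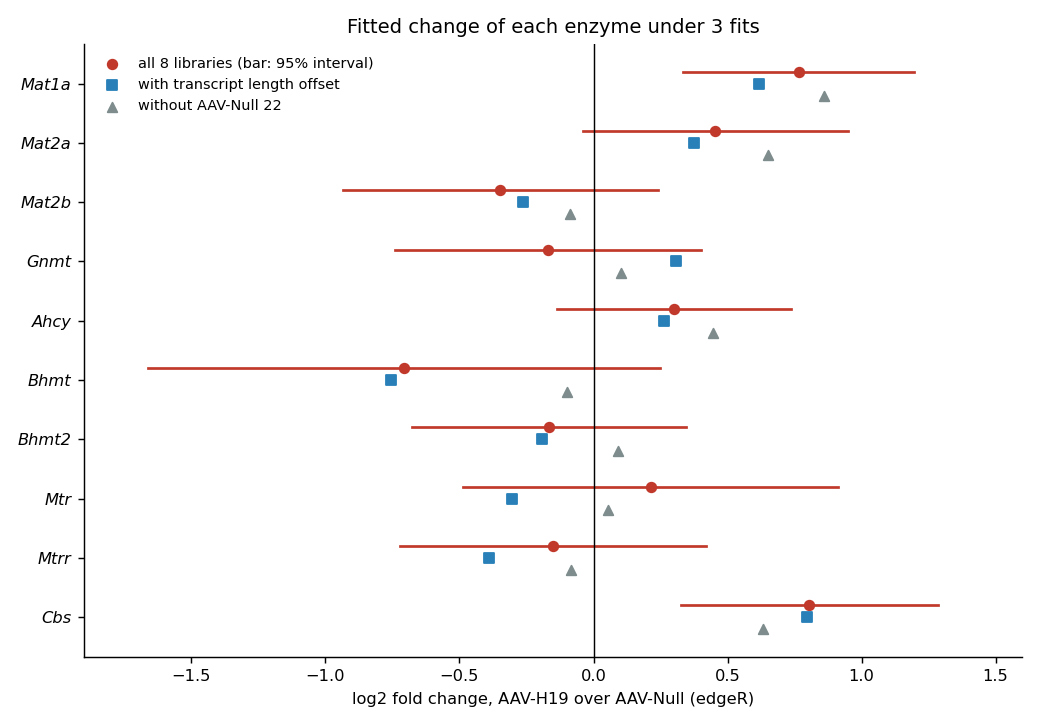
Fitted log2 change of AAV-H19 over AAV-Null for each enzyme, from all 8 libraries with its 95% interval, with the offset for principal transcript length, and without AAV-Null 22. Mat1a and Cbs stay positive in all 3 fits (0.62 to 0.86 and 0.63 to 0.81), and Bhmt moves to -0.10 without AAV-Null 22.

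The enzymes varied more among AAV-Null livers than among AAV-H19 livers, as most genes did. The SD of log2 CPM was larger in AAV-Null for 9 of the 10 members, Mtrr being the exception, and for 80.4% of the 12705 genes with a mean of at least 1 CPM. The members' median SD was 0.24 among AAV-H19 livers and 0.45 among AAV-Null livers, and that of those genes was 0.22 among AAV-H19 and 0.42 among AAV-Null livers. AAV-Null 22 was the highest AAV-Null liver in 8 members and the lowest in 2, Mtr and Cbs; among all those genes it was highest in 35.0% and lowest in 34.2%. The 10 members together took up 1.37% to 1.75% of the library total in AAV-H19 livers and 1.14% to 1.86% in AAV-Null livers.

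The profile of an enzyme over the 8 libraries was also set against those of all other genes of at least 1 CPM with a non-provisional symbol, as the root mean square difference of log2 CPM after centring each gene on its own mean. The 3 genes most like Mat1a were Kdm5a, Atp11b and Zc3h12c, with differences of 0.103, 0.108 and 0.117 where the median over 11470 genes was 0.58. Those most like Bhmt were Hsd3b3, Zfp2 and Zfp273 (0.25, 0.29 and 0.30). Within the cycle the member nearest to Mat1a was Ahcy at 0.31, the member nearest to Cbs was Mat1a at 0.43, and the pair closest to each other was Mat2b and Gnmt at 0.24.

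Genes that feed and drain the cycle gave 3 calls among 58 tested genes in 7 lists, all of them lower: Pemt, Cd320 and Mpst. Without AAV-H19 25, 26 or 27 none was called lower, without AAV-H19 28 the number was 1, and without single AAV-Null livers it was 2 to 4. The 3 calls stand beside 11.7% of all genes and are not read as a result about the lists. At an unadjusted p under 0.05, 10 were higher and 9 lower, where 29.8% of all genes passed. Pemt, which spends SAM to methylate phosphatidylethanolamine, was at 194, 213, 168 and 249 CPM in AAV-H19 livers and at 349, 505, 281 and 332 CPM in AAV-Null livers, in order of animal number, with no overlap and a log2 change of -0.83 ± 0.21 (SE, edgeR adjusted p = 0.0387). Of 10 tested methyltransferases that use SAM, 9 of small molecules or lipids and Icmt, Pemt fell and the other 9 did not pass; 9 of the 10 fitted changes were negative and the median was -0.42. Icmt, the methyltransferase of prenylated proteins, was the one with a positive fitted change, at 0.57. Over all genes tested, 48.9% of fitted changes were positive. The principal transcripts of Pemt, Gamt, Nnmt and Inmt are 988 to 1077 nt long and that of Icmt 4919 nt. Carnmt1, with 4518 nt, had a negative change. The part of the length trend in the signs of this and the following lists was not tested.

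None of the 6 genes of choline oxidation to betaine and of the later demethylation steps passed the test. All 6 fitted changes were positive, with a median of 0.36. Sardh, sarcosine dehydrogenase, which clears the product of Gnmt, had the largest at 0.76 ± 0.23 (SE, edgeR adjusted p = 0.0595). Chdh, which makes betaine from choline, had 0.53. Their principal transcripts are 4521 and 5690 nt long, and those of Aldh7a1, Pipox, Etfdh and Dmgdh 1914 to 2992 nt. In methionine salvage and polyamine synthesis none of 11 passed, 9 had a negative fitted change and the median was -0.23. Among 8 genes of cobalamin handling, which serve Mtr, Cd320, the cellular receptor for transcobalamin, fell to 2.33 ± 0.584 CPM in AAV-H19 livers, against 5.31 ± 2.24 CPM in AAV-Null livers (SD of 4), a log2 change of -1.19 ± 0.32 (SE, edgeR adjusted p = 0.0417), and the other 7 did not pass.

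Of 8 folate genes none passed, and the list's median was 0.28. Of 7 genes downstream of Cbs, Mpst, a sulfurtransferase of cysteine breakdown, fell to 49.1 ± 7.96 CPM in AAV-H19 livers, against 91.2 ± 23.3 CPM in AAV-Null livers (SD of 4), a log2 change of -0.89 ± 0.21 (SE, edgeR adjusted p = 0.0298). Cth, the enzyme that acts directly after Cbs, had a log2 change of 0.14 ± 0.28 (SE, edgeR adjusted p = 0.768). The last list held the SAM carrier Slc25a26, the Ahcy-like Ahcyl1 and Ahcyl2, Mettl16, Adk, Hnrnpm, Prmt1 and Bmt2. None of these 8 passed. Mettl16, the RNA methyltransferase that controls MAT2A splicing in human cells, had a log2 change of 0.08. Adk, which removes the adenosine that Ahcy releases, had one of -0.17. With either length offset none of the 58 genes passed.

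**Figure D5:**
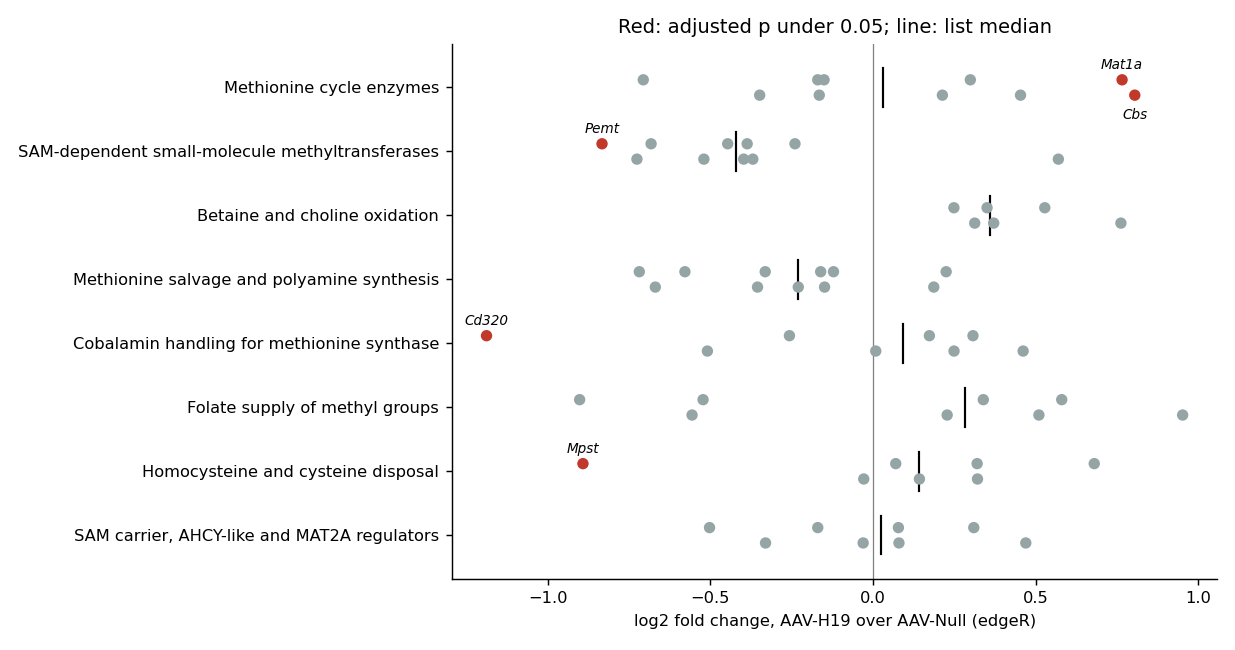
Fitted log2 change of AAV-H19 over AAV-Null for the 10 enzymes (top row) and for the 58 tested genes of 7 neighbouring lists, 1 point per gene. Red points, named, passed an edgeR adjusted p of 0.05: Mat1a and Cbs were higher, and Pemt, Cd320 and Mpst were lower; black lines are list medians.

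Cell-type markers moved beside these values, and their part in the results was not tested. The counts of markers that rose or fell, here and below, stand beside 5.6% of all genes higher and 6.07% lower. No marker list was tested as a set. In bulk tissue fewer cells of a type and less RNA per cell cannot be told apart. The markers that fell, here and below, have principal transcripts of 692 nt (Trbc2) to 2471 nt (Clec4f). Those that rose have 3849 nt (Pigr) to 5555 nt (Cps1), except Cyp2f2 with 1866 nt. The part of the length trend in the marker changes was not tested. Of 10 hepatocyte markers Cps1 and Hnf4a rose and the other 8 did not pass; 6 fitted changes were positive and 4 negative (Ttr, Apoa1, Cyp3a11 and F2). The summed hepatocyte level given above did not overlap between the groups, but Alb, which makes up most of it with a mean of 89095 CPM in AAV-H19 livers and 71303 CPM in AAV-Null livers, overlapped and did not pass (edgeR adjusted p = 0.23). Of 12 periportal markers Cyp2f2, Sox9 and Pigr rose and none fell, with summed levels of 9676 to 12127 CPM in AAV-H19 and 6291 to 10242 CPM in AAV-Null livers. Of 12 pericentral markers Lhpp and Rhbg fell and none rose, with 10845 to 11777 CPM and 11483 to 16488 CPM.

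Of 12 macrophage markers 6 fell and none rose, and their summed level was 163 to 225 CPM in AAV-H19 and 289 to 439 CPM in AAV-Null livers. The summed levels of the other cell types were 240 to 295 CPM in AAV-H19 and 179 to 284 CPM in AAV-Null livers for 8 endothelial markers (Cdh5 rose, Clec4g fell), 246 to 278 and 268 to 339 CPM for 8 stellate markers, and 43.7 to 64.5 and 60.9 to 77.0 CPM for 7 cholangiocyte markers (Sox9 rose, Krt23 fell). Those of 8 lymphocyte markers were 0.724 to 1.246 CPM in AAV-H19 and 2.16 to 2.92 CPM in AAV-Null livers. Trbc2 fell and the other 4 tested did not pass. Its call rests on low values, 0.058 to 0.297 CPM in AAV-H19 and 0.704 to 0.807 CPM in AAV-Null livers. None of the markers was at 0 in all 8 libraries.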

How the data were processed

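The Direct-Zol extraction and the TruSeq-stranded-mRNA libraries are named per the labels' protocols. HISAT and StringTie appear in the submitters' processing notes with no version or role; build, annotation and counting were not given in the sources used here. Values are estimated counts (expected counts) as deposited by the authors, whole numbers and not normalized as far as the values show. Low values pile up at 4 (820 to 990 genes per library, against 226 to 285 at 3), so a unit is not a read.

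Genes passing filterByExpr of edgeR 4.0.16 (minimum count 10, minimum total 15) were TMM-scaled and tested with edgeR's quasi-likelihood test (robust, no covariates, R 4.3.3). Columns were matched to livers by the description in the labels, and 0 columns had no sample. An SE is the log2 change divided by the square root of F. Symbols, positions (GRCm38) and lengths came from GENCODE M21, the principal transcript being that with the best APPRIS tag, then the longest coding sequence, then the best transcript support. All 55450 identifiers matched. The procedure was tested on simulated data. Library pairs differed by more than sampling noise. The members, gene lists and alternatives were chosen with earlier results of these data known. The genes named are the members, H19, pathway genes past an adjusted p of 0.05, and the 3 genes nearest to a few members; other pathway genes, markers and copies were named after their values were seen. Alternatives were DESeq2 1.42.0, limma-voom (limma 3.58.1), other scalings and filters, 1 surrogate variable (sva 3.50.0), offsets for transcript length and GC content (natural spline, 5 degrees of freedom), values divided by 4, overlapping genes or near-identical copies summed, and each library left out.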

Additional observations from a re-analysis of the deposited data

How the results depend on the processing

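Mat1a and Cbs kept a positive log2 change under every alternative run (0.62 to 0.86 and 0.38 to 0.92), and the member counts were 2 higher and 0 lower except as follows. Members higher numbered 1 with upper-quartile scaling, 0 with either length offset, and 0 to 3 when single libraries were left out (3 without AAV-Null 22, 1 without AAV-Null 23, 0 without any of the other 6). Summing near-identical copies was added after the data were seen. Sign changes were all in enzymes that did not pass: Gnmt had 0.31 with each length offset, 0.036 with 1 surrogate variable and -0.31 to 0.10 with single libraries left out, Mtr had -0.29 (longest transcript) and -0.31 (principal transcript), and Bhmt2 and Mtrr spanned -0.30 to 0.091 and -0.37 to 0.039 with single libraries left out. The cause of these changes was not tested. The Mat1a to Mat2a difference in log2 ratio was 0.20 to 0.51 with single libraries left out.

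Pathway genes higher numbered 4 at an adjusted p of 0.1, 3 with DESeq2, 1 each with limma-voom, the filter of 1 CPM in 4 libraries and values divided by 4, 2 with the GC offset, 6 with the surrogate variable and 0 to 2 with single libraries left out, against 0; those lower numbered 7, 7 and 6 at an adjusted p of 0.1, with DESeq2 and with the surrogate variable, 6 with upper-quartile scaling, 0 with either length offset and 0 to 4 with single libraries left out, against 3. Over all genes, higher and lower calls numbered 1694 and 1885 at an adjusted p of 0.1, 1516 and 1932 with DESeq2, 235 and 134 with the longest-transcript offset, 231 and 114 with the principal-transcript offset, 1669 and 1570 with the surrogate variable, 656 and 1557 with upper-quartile scaling, and 86 to 1023 and 27 to 1050 with single libraries left out. Leaving out any AAV-H19 library gave 86 to 373 higher and 27 to 325 lower, and leaving out AAV-Null 24 gave 679 higher and 498 lower. No paired analysis was possible because the groups share no replicate numbers. In H19 every left-out library kept the call (log2 change 7.41 to 8.57).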
